A study of Homo sapiens with 16 samples.

Results

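Mitochondrial ribosomal protein genes were followed in differentiated HepaRG cells by RNA sequencing. The 78 genes were the protein-coding rows of the gene table whose symbol begins with MRPL or MRPS followed by a number, 49 named for the large and 29 for the small ribosomal subunit, of 58735 genes in all. HepaRG is a human liver tumour line that, once differentiated, holds hepatocyte-like and biliary-like cells side by side, so its levels are those of 1 line and of a mixture. The groups were 30 nM formoterol together with 0.25 mM palmitic acid and 0.5 mM oleic acid (the combination), these fatty acids alone, 30 nM formoterol alone, and a vehicle control with 1% BSA. No BSA content is given for the treated groups, so whether they had the same vehicle as the control is not known. Formoterol is an agonist of the beta-2 adrenergic receptor. Every group, the control included, was kept in 2% DMSO and treated for 3 days, and each had 4 libraries. The labels call the libraries independent replicates without saying that each was its own culture. The p-values therefore cover the spread between these libraries, which may be technical. In bulk RNA, fewer cells of a type and less RNA per cell cannot be told apart.

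The mitochondrial ribosome is built in the matrix from RNAs encoded by mitochondrial DNA and from proteins that are all encoded in the nucleus, made in the cytosol and imported. It makes the 13 proteins of mitochondrial DNA, all of them subunits of the respiratory chain and ATP synthase. The large subunit joins amino acids to the chain, and the small subunit holds and decodes the mRNA. Hepatocytes are rich in mitochondria, and variants in several of these genes are known to cause mitochondrial translation disorders in people.

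All 78 genes passed the filter on low counts and were tested among 18121 genes. A gene was counted as changed at an adjusted p under 0.05 in edgeR's quasi-likelihood test, with Benjamini-Hochberg adjustment over the 18121 genes. Levels are CPM, counts scaled to 1e6 per library with TMM factors, changes are log2 fold changes ± SE, and every adjusted p below comes from that test. Coordinates are those of GRCh38. Of the 78 genes 29 overlap another gene with more than 10% of their own counts, and no source used here gives the strandedness of the counting, so these levels are uncertain and for those named the overlapping gene with the most counts is given beside them. The 75 pseudogene rows with MRPL or MRPS names held counts equal to 0.138% of those of the 78 genes.

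Depth, as total counts divided by 1e6, was 65.7 in formoterol replicate 4 and 32.5 to 41.7 in the other libraries. The hepatocyte markers were present in all groups, at widely different levels. ALB, the highest, averaged 21710 ± 7971 CPM in the combination, 30000 ± 1654 CPM with fatty acids, 31360 ± 599.5 CPM with formoterol and 16500 ± 3495 CPM in control (SD, n = 4 each). In control ASGR1 averaged 17.25 ± 1.608 CPM and HNF4A 95.28 ± 4.136 CPM. CYP3A4 averaged 663 ± 305.5 CPM in the combination, 1917 ± 146 CPM with fatty acids, 2374 ± 181.7 CPM with formoterol and 2181 ± 470.2 CPM in control. The biliary markers were mixed. KRT19 averaged 126 ± 10.2 CPM in the combination, 168 ± 11.5 CPM with fatty acids, 55.4 ± 2.78 CPM with formoterol and 58.7 ± 6.40 CPM in control, and EPCAM was at 0 CPM in every group. Of 5 biliary markers that passed the filter 2 (KRT19 and CD24) rose and 1 (SOX9) fell with fatty acids, and 1 (CD24) rose with formoterol. Combination replicate 2 stood apart. Relative to the controls, its mean log2 CPM over 12 hepatocyte markers was −1.01, where the other combination libraries had 0.54 to 0.64. Over 6 proliferation markers it was 2.19, where the others had 1.44 to 1.58.

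The mitochondrial ribosomal protein genes moved with 3 single libraries. Their mean log2 CPM stood 0.30 above the control mean in formoterol replicate 4, against 0.00 to 0.11 in the other formoterol libraries. It stood at −0.28 in combination replicate 2, against −0.05 to 0.02 in the other combination libraries, and at −0.12 in control replicate 2, against 0.02 to 0.07 in the other control libraries. The 84 measured genes of the cytosolic ribosome did the same, at 0.50, −0.38 and −0.33 in these 3 libraries. Of the 78 genes 57 (73.1%) were highest in replicate 4 among the formoterol libraries, where 28.9% of all tested genes were, and 56 (71.8%) were lowest in replicate 2 among the combination libraries, where 31.7% of all tested genes were. What sets these libraries apart was not tested.

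**Figure D1:**
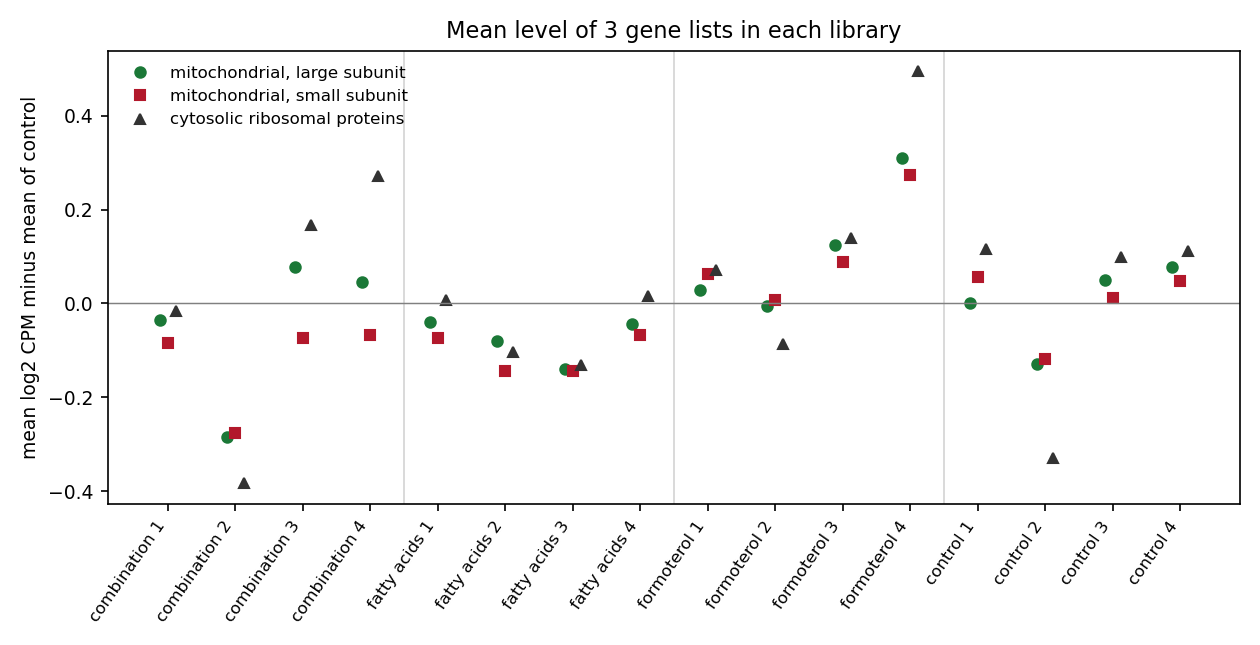
Mean log2 CPM of the 49 large-subunit genes (circles), the 29 small-subunit genes (squares) and 84 cytosolic ribosomal protein genes (triangles) in each of the 16 libraries, as the difference from the mean of the 4 control libraries. Both subunits and the cytosolic list are highest in formoterol replicate 4, both subunits and the cytosolic list are lowest in combination replicate 2, and control replicate 2 lies below the other controls.

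Levels of single genes differed widely although the proteins share 1 complex. Per kilobase of exon, control levels of the large-subunit genes ran between 0.434 and 50.7 CPM with a median of 8.86, and those of the small-subunit genes between 0.233 and 41.8 CPM with a median of 9.38. MRPL15, a homologue of a bacterial ribosomal protein, was the highest at 50.7 CPM per kb, followed in its subunit by MRPL3 at 37.2 and MRPL37 at 29.5. MRPS10 led the small subunit at 41.8 CPM per kb, before MRPS18B at 36.8 and MRPS9 at 19.5. At the low end stood MRPL38 at 0.434, MRPL46 at 0.537 and MRPL23 at 0.597 CPM per kb in the large subunit, and MRPS24 at 0.233, MRPS6 at 1.31 and MRPS18C at 1.36 in the small one. MRPS24 had 7 to 42 counts per library and MRPL38 20 to 83, so both are measured with little precision. Some of these lowest genes also share exon bases with other protein-coding genes on the same strand, MRPL38 with AC087289.3 (1373 bases), MRPL46 with AC013489.1 (724), MRPS24 with URGCP-MRPS24 (606) and MRPS6 with SLC5A3 (273). AC087289.3 had 0.0841 times the counts of MRPL38, AC013489.1 fewer still beside MRPL46, URGCP-MRPS24 had 0 counts and SLC5A3 7.58 times those of MRPS6. How the counting treated reads in shared exons is not known, so these low levels may not be the genes' full expression. MRPL23 and MRPS18C share exon bases only with genes on the other strand. Genes that are not low share them too, such as MRPL30 with AC079447.1 on the same strand (564 bases), at 11.3 CPM per kb in control. MRPL38 further overlaps AC087289.2 on the other strand (0.136 times its counts). MRPS18B overlaps PPP1R10 (1.02 times its counts), MRPS18C overlaps ABRAXAS1 (3.20 times) and MRPL37 overlaps SSBP3 (0.851 times). The median coefficient of variation among 4 control libraries was 10.5% for the large and 9.32% for the small subunit.

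**Figure D2:**
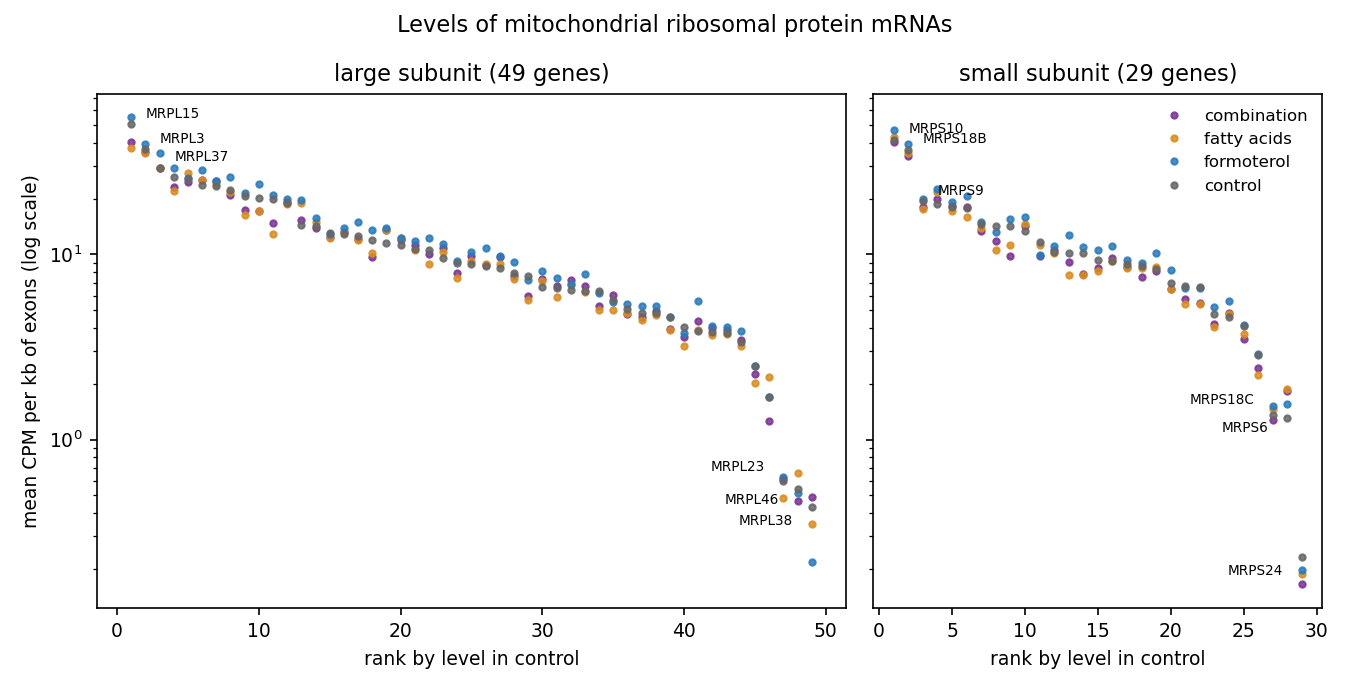
Mean CPM per kb of exon (log axis) of the 49 large-subunit and 29 small-subunit genes, ranked by their level in control, with 1 point per group of 4 libraries. The 3 highest and 3 lowest genes of each subunit are named, and the points of the 4 groups lie close together beside the spread between genes.

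Summed over the 78 genes, levels were 2180 ± 162 CPM in the combination, 2172 ± 37.1 CPM with fatty acids, 2533 ± 169 CPM with formoterol and 2298 ± 97.3 CPM in control (SD, n = 4 each). The ratio of the large-subunit sum to the small-subunit sum, per kilobase, lay between 1.65 and 1.83 in all 16 libraries, at 1.73 to 1.83 in the combination, 1.69 to 1.81 with fatty acids, 1.72 to 1.83 with formoterol and 1.65 to 1.78 in control. These ranges overlap in every pair of groups.

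The starts of these genes are known for sites of a few shared regulators, among them the ETS-family factor GABP (also called NRF2, nuclear respiratory factor), NRF1 and YY1. RefSeq promoters (GRCh38.p14, 250 bases before to 50 after the start) matched 69 of the 78 genes, in 85 promoters. Motifs were searched on both strands, and a gene was counted once where any of its promoters held the letters. The ETS letters CCGGAAG were found for 30 of 69 genes (43.5%), against 20.9% of 10959 tested protein-coding genes. The YY1 letters AAGATGGC were found for 21 (30.4%), against 6.05%, in 16 of the 21 only at or after the start. Promoters per gene numbered 1.23 for the 69 genes and 1.47 for the wider set, and their median GC content was 60% and 64%. The NRF1 letters GCGCATGCG stood in 3 promoter sets (4.35%, against 3.97%), the E-box CACGTG in 9 (13.0%, against 12.2%) and the CCAAT box in 23 (33.3%, against 43.6%). The full cAMP response element TGACGTCA, the letters bound by CREB after beta-adrenergic signalling, stood in the promoter of 1 gene, MRPL4 (1.45%, against 3.52%). ETS letters were present for 42.9% of large-subunit and 44.4% of small-subunit genes, and YY1 letters for 31.0% and 29.6%.

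Shown for 4 genes are 150 bases from RefSeq that no GENCODE exon covers and that end 4 to 38 bases before a RefSeq start, read along each gene's strand, with ETS letters in capitals. MRPL3 (chr3:131502984-131503133, minus strand) and MRPS10 (chr6:42217866-42218015, minus strand) are shown as highly expressed genes of the large and the small subunit. MRPS22 (chr3:139343806-139343955, plus strand) holds a facing pair of these letters. MRPS22 has 3 RefSeq starts, and this stretch, which precedes 2 of them, lies inside the GENCODE gene, which begins further upstream. The stretch before the other start, at chr3:139344401-139344550, holds no ETS letters. MRPL39 (chr21:25607518-25607667, minus strand), the gene whose interaction passed under every alternative setting run below, holds none of the 6 motifs in the stretch shown.
MRPL3: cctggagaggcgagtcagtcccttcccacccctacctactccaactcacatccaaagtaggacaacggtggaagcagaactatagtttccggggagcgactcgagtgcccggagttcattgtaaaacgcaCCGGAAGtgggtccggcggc
MRPS10: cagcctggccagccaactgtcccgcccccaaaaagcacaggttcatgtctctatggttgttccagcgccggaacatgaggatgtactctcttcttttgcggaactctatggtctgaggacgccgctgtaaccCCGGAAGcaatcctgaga
MRPS22: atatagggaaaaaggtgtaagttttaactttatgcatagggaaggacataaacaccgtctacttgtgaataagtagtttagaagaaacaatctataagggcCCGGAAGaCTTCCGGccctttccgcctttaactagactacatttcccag
MRPL39: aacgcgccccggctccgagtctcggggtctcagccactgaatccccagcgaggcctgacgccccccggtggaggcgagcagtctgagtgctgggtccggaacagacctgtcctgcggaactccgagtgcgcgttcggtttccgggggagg

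Formoterol against control asks how these genes differ with formoterol given without fatty acids, where the vehicle of the formoterol group is not stated. With formoterol 10 of the 78 genes (12.8%) rose and 0 fell, where 5.76% of all tested genes rose and 4.57% fell. At an unadjusted p under 0.05 in edgeR, 20 were higher and 2 lower, where 2277 of the 18121 tested genes were higher and 2063 lower. DESeq2 found 12 higher and 1 lower, and its share over all tested genes is not given here. The median change over the 78 genes was 0.12, positive in 65 of 78, against 0.02 over tested protein-coding genes. It was 0.12 in both subunits. With total counts in place of TMM scaling the median of all genes shifts to −0.14, the subunit medians turn to −0.01 for the large and −0.02 for the small subunit, and 1 gene rises and 2 fall.

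MRPL39 (ENSG00000154719, chromosome 21, 25585656 to 25607517), a protein of the large subunit with no bacterial counterpart, had 23.5, 21.5, 23.1 and 25.8 CPM in the 4 formoterol libraries and 17.2, 14.9, 17.9 and 19.0 CPM in the control libraries. Every formoterol library lay above every control library. Its change was 0.45 ± 0.09 (adjusted p = 0.00405), the largest of the 10, and it passed the test under all 25 alternative settings, with adjusted p up to 0.0351. MRPS5 (ENSG00000144029, chromosome 2, 95087207 to 95149434), a homologue of a bacterial protein near the mRNA entry of the small subunit, had 66.3, 72.4, 64.5 and 71.9 CPM with formoterol and 54.0, 49.4, 61.7 and 59.1 CPM in control. The groups did not overlap, and its change was 0.30 ± 0.07 (adjusted p = 0.0093). MRPS5 overlaps ZNF514 on the same strand, whose counts were 0.131 times its own. MRPL35 (ENSG00000132313, chromosome 2, 86199355 to 86213794), of the large subunit, had 94.5, 85.6, 96.3 and 92.9 CPM with formoterol and 80.5, 81.4, 73.2 and 72.2 CPM in control, again without overlap. Its change was 0.27 ± 0.07 (adjusted p = 0.0133). MRPS5 lost this call with total counts, and MRPL35 lost it with total counts and without control replicate 3.

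The other 7 genes that rose lost the call under 3 to 18 of 25 alternative settings. In the large subunit they were MRPL13 at 0.33 ± 0.09 (adjusted p = 0.0186), MRPL37 at 0.26 ± 0.07 (adjusted p = 0.0218), MRPL44, an RNase III-like protein mutated in infantile cardiomyopathy, at 0.26 ± 0.08 (adjusted p = 0.0432), and MRPL50, outside the rule for named genes and given to complete the list, at 0.26 ± 0.08 (adjusted p = 0.0334). In the small subunit they were MRPS35 at 0.27 ± 0.08 (adjusted p = 0.0326), MRPS16 at 0.21 ± 0.07 (adjusted p = 0.0428) and MRPS22, a gene of mitochondrial translation deficiency, at 0.23 ± 0.07 (adjusted p = 0.0479). MRPS16 overlaps DNAJC9 (0.185 times its counts) and MRPS22 overlaps COPB2 (8.21 times). Without formoterol replicate 4 the count of 10 became 3, without control replicate 3 it was 4, without control replicate 2 or 4 it was 5, and without formoterol replicate 2 it was 6. Formoterol replicate 4 is also the library in which the cytosolic ribosomal protein genes were highest, and of those 84 genes 1 rose and 0 fell, with a median of 0.14, positive in 77.

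**Figure D3:**
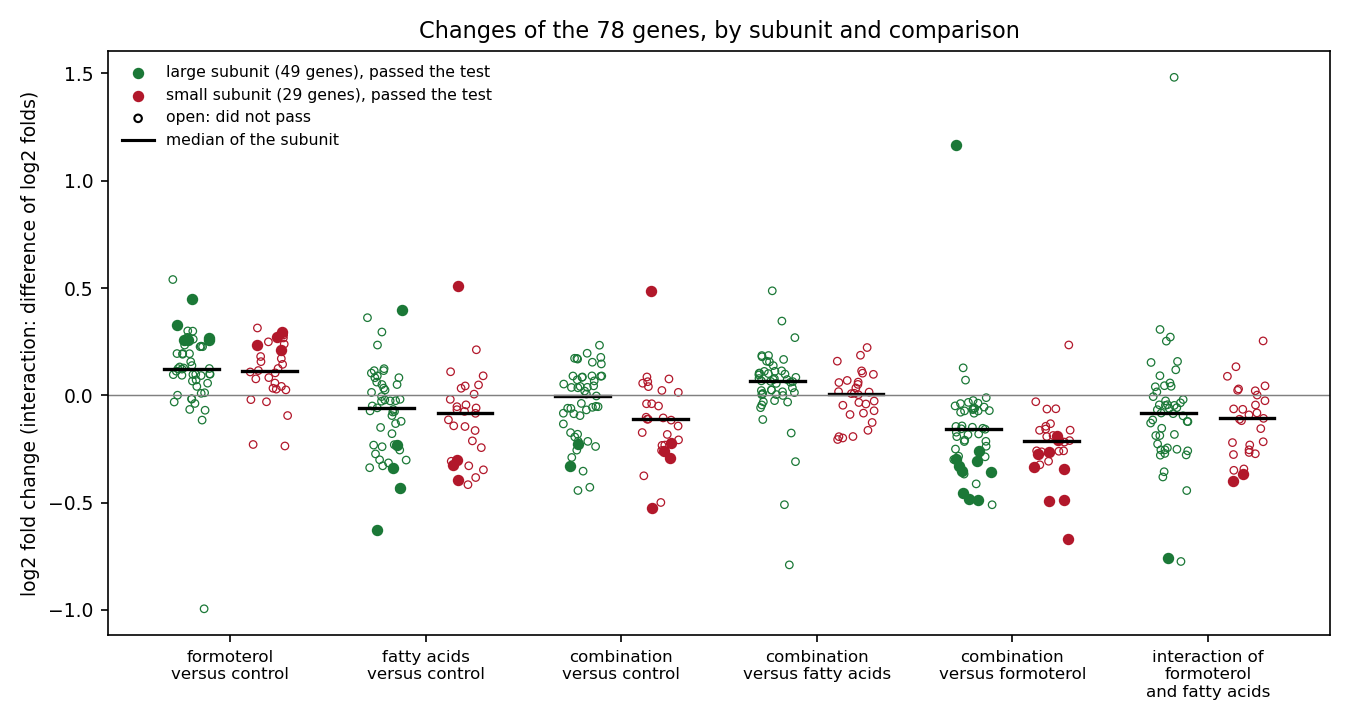
Log2 fold changes of the 78 genes in the 5 pairwise comparisons and the interaction (a difference of log2 fold changes), with large-subunit genes left and small-subunit genes right in each pair. Filled points passed the test, open points did not, and bars are subunit medians. Filled points lie above 0 for formoterol against control and, apart from MRPL38, below 0 for the combination against formoterol.

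Fatty acids against control asks what a lipid load does. With fatty acids 7 of the 78 genes fell and 2 rose, where 7.62% of all tested genes fell and 8.93% rose, so the share that fell, 8.97%, was near the background. The median change was −0.07, negative in 53 of 78. It was −0.06 in the large and −0.08 in the small subunit. The median of the cytosolic ribosomal protein genes was also −0.08, with 0 called. Without control replicate 2 the count of 9 stayed at 9.

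MRPL15 (ENSG00000137547, chromosome 8, 54135210 to 54147901) had 43.6, 48.4, 42.1 and 45.3 CPM with fatty acids and 65.8, 54.8, 57.8 and 63.2 CPM in control. All fatty acid libraries lay below all control libraries, and the change of −0.43 ± 0.07 (adjusted p = 0.000177) passed under all 25 alternative settings. MRPS23, a small-subunit protein, had 36.1, 32.2, 34.5 and 34.4 CPM with fatty acids and 46.6, 39.2, 43.4 and 42.9 CPM in control. Its change was −0.33 ± 0.07 (adjusted p = 0.00254), and it also passed under all 25. MRPS25 (ENSG00000131368, chromosome 3, 15042460 to 15065335), of the small subunit, had 30.9, 27.7, 26.8 and 31.2 CPM with fatty acids and 34.7, 36.5, 32.8 and 39.6 CPM in control, with a change of −0.30 ± 0.07 (adjusted p = 0.00736) that also passed under all 25. It overlaps NR2C2 on the other strand, whose counts were 1.58 times its own.

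The other falls were those of MRPS12, a homologue of the bacterial protein at the decoding site, at −0.40 ± 0.11 (adjusted p = 0.016), MRPL34 at −0.34 ± 0.10 (adjusted p = 0.017), MRPL41 at −0.63 ± 0.18 (adjusted p = 0.0191) and MRPL35 at −0.23 ± 0.07 (adjusted p = 0.0194). MRPL41 varied widely, with 15.9, 13.8, 16.5 and 19.2 CPM with fatty acids and 25.9, 18.3, 26.6 and 30.3 CPM in control. MRPL34 overlaps ABHD8, whose counts were 0.274 times its own. The genes that rose were MRPL39, with 22.3, 25.7, 22.4 and 20.6 CPM with fatty acids against 17.2, 14.9, 17.9 and 19.0 CPM in control and a change of 0.40 ± 0.09 (adjusted p = 0.00506), and MRPS6 at 0.51 ± 0.16 (adjusted p = 0.0317). MRPS6 shares exon bases with SLC5A3 on the same strand, a sodium-coupled transporter gene with 7.58 times its counts, so its rise is uncertain. MRPL39 was thus called higher in both single treatments. With fatty acids MRPL39 and MRPS6 rose in a set of genes of which most lay below control.

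**Figure D4:**
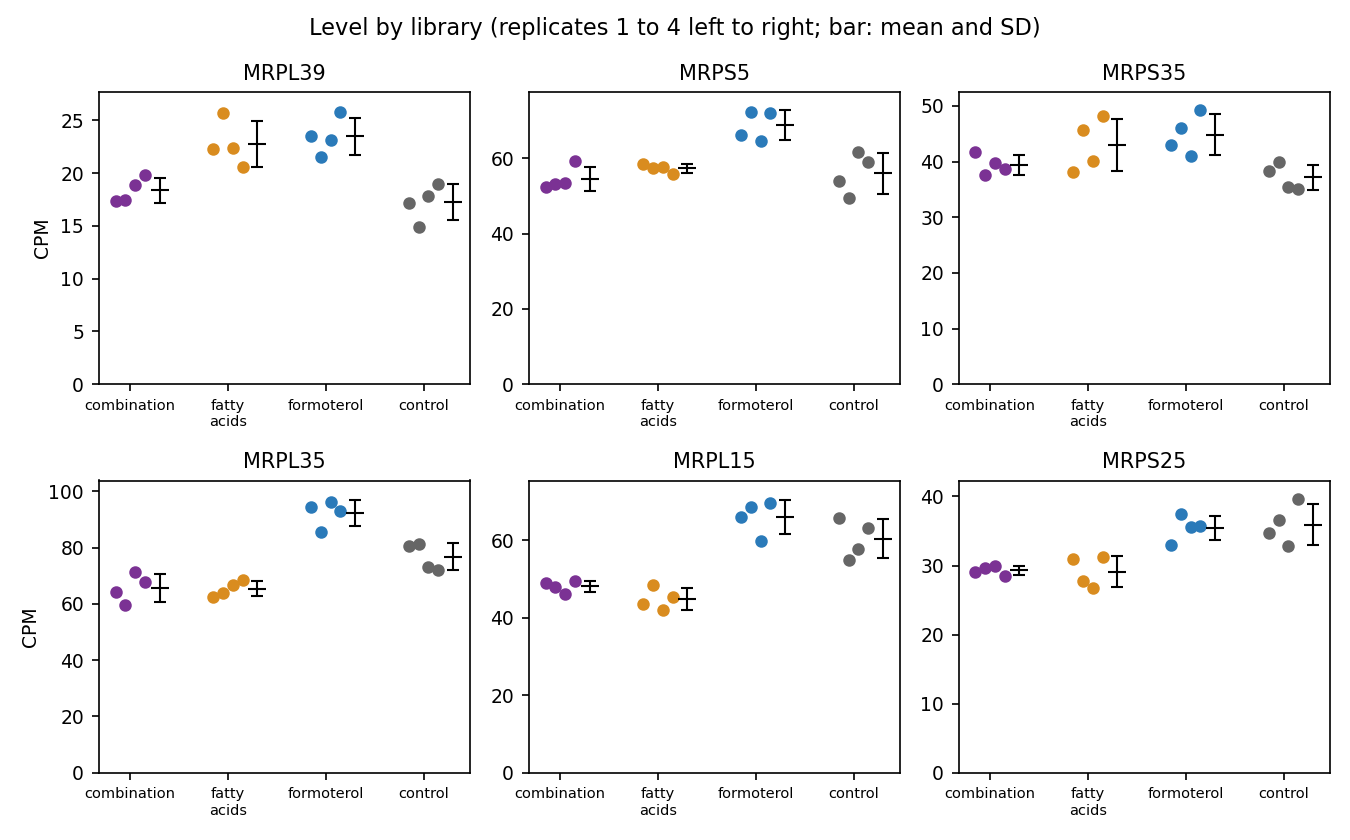
CPM of MRPL39, MRPS5, MRPS35, MRPL35, MRPL15 and MRPS25 in each library (points, replicates 1 to 4 left to right), with the mean and SD of each group of 4 in black; axes start at 0. MRPL39 is higher with fatty acids and with formoterol than in the combination and control, MRPL35 is highest with formoterol, and MRPL15 and MRPS25 are lower in both groups given fatty acids.

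The combination against fatty acids compares cells given fatty acids and formoterol with cells given fatty acids alone. Of the 78 genes 0 rose and 0 fell in edgeR, where 1.68% of all tested genes rose and 1.12% fell. At an unadjusted p under 0.05 in edgeR, 1 was higher and 6 were lower, where 1284 of the 18121 tested genes were higher and 1298 lower. DESeq2 called 2 lower, MRPL39 and MRPL53, and its share over all tested genes is not given here. MRPL39 had 17.3, 17.4, 18.9 and 19.8 CPM in the combination and 22.3, 25.7, 22.4 and 20.6 CPM with fatty acids. The combination libraries all lay below the fatty acid libraries, with a difference of −0.31 ± 0.09 (adjusted p = 0.0842) that did not pass. The next smallest p-values were those of MRPL53 at −0.79 ± 0.25 (adjusted p = 0.103), MRPL46 at −0.51 ± 0.18 (adjusted p = 0.148) and MRPS16 at 0.19 ± 0.07 (adjusted p = 0.156). MRPL53 had 51 to 152 counts per library and overlaps CCDC142, which had 3.53 times its counts. The median was 0.03 over the 78 genes, 0.07 in the large and 0.01 in the small subunit.

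In the combination against control 6 of the 78 genes (7.69%) fell and 1 (1.28%) rose, where 6.68% of all tested genes fell and 7.58% rose. The share that fell was near the background, and the share that rose was below it. The genes that fell were MRPL15, with 49.0, 48.0, 46.1 and 49.4 CPM in the combination against 65.8, 54.8, 57.8 and 63.2 CPM in control and a change of −0.33 ± 0.07 (adjusted p = 0.00247), MRPS25 at −0.29 ± 0.07 (adjusted p = 0.00992), MRPL35 at −0.23 ± 0.07 (adjusted p = 0.0249), MRPS14 at −0.26 ± 0.08 (adjusted p = 0.0333), MRPS23 at −0.22 ± 0.07 (adjusted p = 0.0366) and MRPS36 at −0.53 ± 0.17 (adjusted p = 0.0357). MRPS36 is named for the small subunit but is known as a component of the 2-oxoglutarate dehydrogenase complex. It had 12.5, 10.3, 17.6 and 19.6 CPM in the combination and 23.9, 18.3, 20.6 and 23.8 CPM in control, with combination replicate 2 the lowest library. MRPS14 overlaps CACYBP, with 0.918 times its counts. MRPS6 rose at 0.48 ± 0.16 (adjusted p = 0.0467), with the same overlap as above, and lost the call in 14 of 25 alternative settings. MRPL15 and MRPS25 passed under all 25 alternative settings. Without combination replicate 2 the count of 7 became 3, without combination replicate 1 or control replicate 1 it was 2, without control replicate 3 it was 4, and without control replicate 2 it was 6. The median change was −0.05 over the 78 genes and −0.11 in the small subunit. Without combination replicate 2 the medians were 0.05 in the large and −0.08 in the small subunit.

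The combination against formoterol, the addition of fatty acids to formoterol, gave the most changes. Of the 78 genes 18 fell (23.1%) and 1 rose, where 8.97% of all tested genes fell and 9.48% rose. The median was −0.19, negative in 74 of 78, against 0.01 over all tested genes. The cytosolic ribosomal protein genes had a median of −0.13, negative in 77 of 84, with 0 called. The falls numbered 9 of 49 in the large and 9 of 29 in the small subunit, with medians of −0.16 and −0.21. This comparison sets formoterol replicate 4 against combination replicate 2, the libraries in which most of these genes were highest and lowest within their groups. Without formoterol replicate 4 there were 10 changes in place of 19, without combination replicate 2 there were 13, and with both libraries left out 5, chosen after seeing the data, when the medians were −0.03 for the large and −0.14 for the small subunit. With total counts 6 fell and 1 rose, beside a shift of the median of all genes to 0.14.

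MRPL35 had 64.1, 59.8, 71.4 and 67.6 CPM in the combination and 94.5, 85.6, 96.3 and 92.9 CPM with formoterol. The groups were far apart, with a change of −0.49 ± 0.07 (adjusted p = 2.84e-05). MRPL15 had 49.0, 48.0, 46.1 and 49.4 CPM in the combination and 65.9, 68.5, 59.7 and 69.6 CPM with formoterol, with a change of −0.46 ± 0.07 (adjusted p = 0.000109). These 2 falls passed under all 25 alternative settings, with adjusted p up to 0.00108 for MRPL35 and 0.0051 for MRPL15. Next in the large subunit were MRPL40 at −0.48 ± 0.11 (adjusted p = 0.00412) and MRPL39 at −0.36 ± 0.09 (adjusted p = 0.0103). In the small subunit MRPS5 stood at −0.33 ± 0.07 (adjusted p = 0.00195), MRPS22 at −0.35 ± 0.07 (adjusted p = 0.00251), MRPS12 at −0.49 ± 0.11 (adjusted p = 0.00332) and MRPS36 at −0.67 ± 0.17 (adjusted p = 0.00664).

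Of these, MRPL39, MRPL40, MRPS12 and MRPS36 lost the call with both libraries left out, and MRPL39, MRPS5 and MRPS22 lost it with total counts. MRPL40 overlaps C22orf39, with 1.10 times its counts. MRPS12 had 22.8, 16.0, 19.5 and 19.3 CPM in the combination and 23.4, 25.7, 28.1 and 31.5 CPM with formoterol, with replicate 2 the lowest of the combination and replicate 4 the highest with formoterol. MRPL38 rose at 1.17 ± 0.36 (adjusted p = 0.0251), with 2.42, 2.06, 1.96 and 0.724 CPM in the combination and 0.657, 0.535, 1.26 and 0.758 CPM with formoterol. The groups overlapped, and the call was lost under 7 of 25 alternative settings, among them without either library named above.

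The interaction asks whether formoterol acted on a gene differently with fatty acids than without them. It passed above 0 for 0 of the 78 genes, where 2.12% of all tested genes were called above. It passed below 0 for 3 (3.85%), near the 3.38% of all tested genes called below. The genes were MRPL39 at −0.76 ± 0.13 (adjusted p = 0.00266), MRPS5 at −0.37 ± 0.10 (adjusted p = 0.0326) and MRPS35 at −0.40 ± 0.11 (adjusted p = 0.0415). MRPL39 averaged 18.4 ± 1.19 CPM in the combination, 22.8 ± 2.14 CPM with fatty acids, 23.5 ± 1.77 CPM with formoterol and 17.2 ± 1.72 CPM in control (SD, n = 4 each). It was thus higher with each agent alone, while the combination differed from control by 0.09 ± 0.09 (adjusted p = 0.613), which did not pass. Its interaction passed under all 24 alternative settings, with values between −0.81 and −0.60 and adjusted p up to 0.0116. MRPL39 overlaps no other gene.

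MRPS5 averaged 54.5 ± 3.12 CPM in the combination, 57.4 ± 1.15 CPM with fatty acids, 68.8 ± 3.96 CPM with formoterol and 56.0 ± 5.46 CPM in control. It was high in the formoterol group and nearly level in the other groups. MRPS35 (ENSG00000061794, chromosome 12, 27710773 to 27756295) had 41.8, 37.5, 39.8 and 38.6 CPM in the combination, 38.2, 45.7, 40.2 and 48.2 CPM with fatty acids, 43.0, 46.1, 41.0 and 49.3 CPM with formoterol and 38.2, 39.9, 35.5 and 35.0 CPM in control, where the ranges with fatty acids and with formoterol overlap. The calls of MRPS5 and MRPS35 were lost in 10 and 12 of 24 alternative settings. Without formoterol replicate 2 or 4, fatty acids replicate 2 or control replicate 1 the count of 3 became 1.

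**Figure D5:**
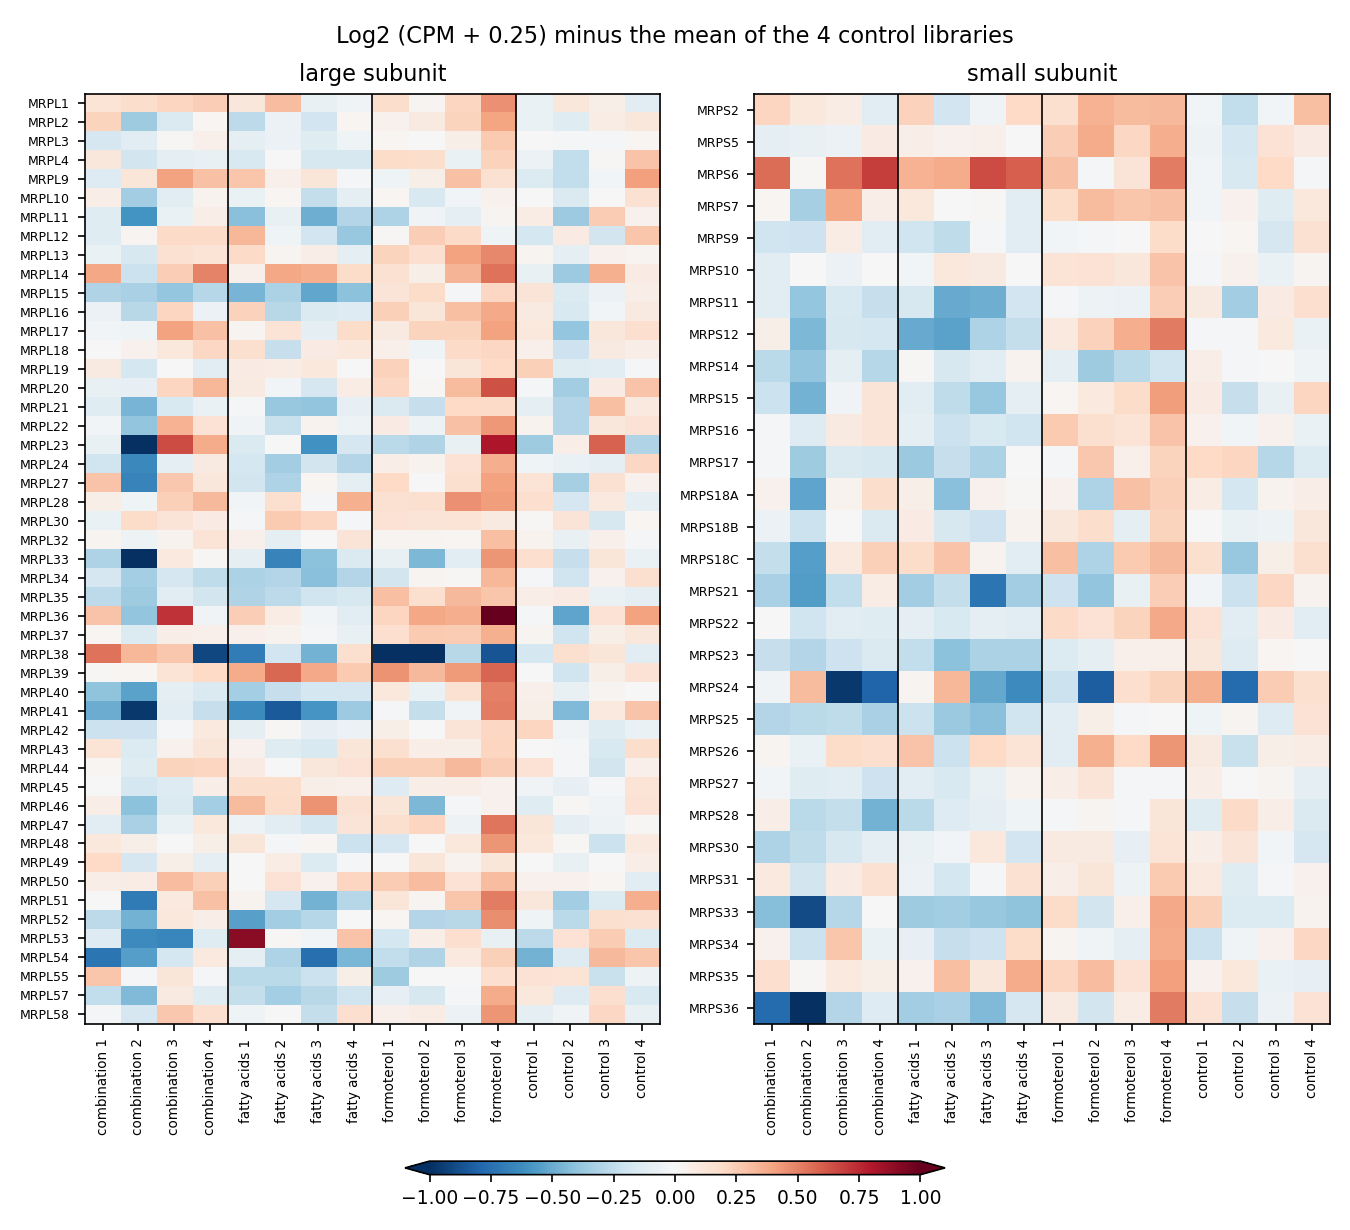
Log2 (CPM + 0.25) of each of the 78 genes in each library, as the difference from the mean of the 4 control libraries, with large-subunit genes left and small-subunit genes right; colours saturate at 1 log2 unit. Formoterol replicate 4 is red and combination replicate 2 blue over most genes, MRPL15 is blue in all 8 libraries given fatty acids, and MRPL39 is red with fatty acids alone and with formoterol alone.

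Across the 5 pairwise comparisons and the interaction, 52 of the 78 genes passed in none, 11 in 1, 10 in 2, 3 in 3 and 2 in 4. The 26 that passed at least once are 33.3%, near the 32.6% of all tested genes. The comparisons share control or treated samples, so calls of a gene in several of them are not independent. MRPL35 and MRPL39 were the genes called in 4. Several genes with known places or roles in the ribosome passed in none. MRPL12, reported to bind the mitochondrial RNA polymerase, averaged 4.13 ± 0.446 CPM in the combination, 3.75 ± 0.866 CPM with fatty acids, 4.20 ± 0.428 CPM with formoterol and 3.93 ± 0.661 CPM in control, and passed in no comparison. Nor did MRPL58, a peptidyl-tRNA hydrolase that frees stalled ribosomes, MRPL3, MRPS34 or MRPS7, whose difference with formoterol was 0.27 ± 0.10 (adjusted p = 0.111). MRPS7 overlaps GGA3, which had 0.912 times its counts.

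MRPS18A, MRPS18B and MRPS18C are homologues of 1 bacterial protein, and MRPS18A sits in the large subunit in place of the small one. None passed in any comparison. Their control levels differed, at 8.84, 36.8 and 1.36 CPM per kb. MRPS30 is also part of the large subunit despite its name. It fell in the combination against formoterol at −0.26 ± 0.08 (adjusted p = 0.0212) and passed in no other comparison. Assigning MRPS18A and MRPS30 to the large subunit and leaving out MRPS36 gave 51 and 26 genes, of which 10 and 7 fell in the combination against formoterol. The large-subunit count with formoterol against control stayed at 6 and the small-subunit count at 4 under that assignment.

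Other genes of mitochondrial translation were counted in lists drawn up by function, beside the shares of all tested genes given above (7.62% falling with fatty acids, 5.76% rising with formoterol, 8.97% falling in the combination against formoterol). Of 5 further mitoribosome proteins without an MRPL or MRPS name, 0 changed against control, and 1, AURKAIP1, fell in the combination against formoterol at −0.40 ± 0.09 (adjusted p = 0.0037). Of 23 assembly and rRNA modification factors 1 rose and 3 (13.0%) fell with fatty acids, among them DHX30, an RNA helicase of mitochondrial RNA granules, at −0.34 ± 0.06 (adjusted p = 0.000514), and none changed with formoterol. Of 16 translation factors 0 rose and 4 (25%) fell with fatty acids, 1 (6.25%) rose with formoterol, and 8 (50%) fell in the combination against formoterol, with medians of −0.14, 0.14 and −0.25. TUFM, the elongation factor that brings aminoacyl-tRNA to the ribosome, changed in all 3, at −0.27 ± 0.07 (adjusted p = 0.0117), 0.26 ± 0.07 (adjusted p = 0.0221) and −0.42 ± 0.07 (adjusted p = 0.000249).

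OXA1L, which inserts the new chains into the inner membrane beside the ribosome exit, fell with fatty acids at −0.33 ± 0.05 (adjusted p = 0.000177). Of 17 aminoacyl-tRNA synthetases 2 (11.8%) fell with fatty acids, 1 (5.88%) rose with formoterol, both near the background, and 5 (29.4%) fell in the combination against formoterol. None of 6 mitochondrial transcription genes passed in any comparison. Of 9 regulators of mitochondrial genes 2 (22.2%) fell and 0 rose with fatty acids, and 0 changed with formoterol against control. PPARGC1A, the coactivator of mitochondrial biogenesis, fell with fatty acids at −0.76 ± 0.07 (adjusted p = 1.02e-07), as did ESRRA, a nuclear receptor it binds, at −0.72 ± 0.08 (adjusted p = 1.82e-06). The others, among them NRF1, GABPA and YY1, did not pass with fatty acids.

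The products of the ribosome's work can be set beside its proteins only as RNA. Of the 13 mRNAs of mitochondrial DNA 9 (69.2%) fell and 0 rose with fatty acids (median −0.37), 11 (84.6%) fell in the combination against formoterol (median −0.53), and 0 changed with formoterol against control (median 0.19). Relative to control, their mean log2 CPM was 0.47 in formoterol replicate 4, against −0.02 to 0.16 in the other formoterol libraries. It was −0.76 in combination replicate 2, against −0.33 to −0.06 in the other combination libraries. Counts for these mRNAs without these libraries are not given here. The ribosomal RNA of the small subunit, MT-RNR1, rose with fatty acids at 0.38 ± 0.11 (adjusted p = 0.0238), while that of the large subunit, MT-RNR2, had −0.11 ± 0.10 (adjusted p = 0.504) and did not pass. The libraries were made from poly-A RNA, and how well that selects these RNAs was not tested. Hepatocyte markers moved with the treatments as well. Of 12, 8 rose and 0 fell with formoterol, 8 rose and 0 fell with fatty acids, 6 rose and 1 fell in the combination against control, 0 rose and 1 fell against fatty acids, and 1 rose and 4 fell against formoterol. Of 6 proliferation markers 3 rose with formoterol, and all 6 rose with fatty acids and in the combination against control, against fatty acids and against formoterol, with medians of 0.47, 1.03, 1.74, 0.73 and 1.22. Of the 5 biliary markers 2 rose and 1 fell in the combination against formoterol. Their part in the values of the ribosomal protein genes was not tested.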

How the data were processed

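Poly-A RNA of 16 libraries was sequenced, 4 per group, per the labels. The authors deposited 1 table of whole-number counts per gene. As tools, the submitters' processing notes list DESeq2 and HISAT2 2.0.5, with a mouse build, mm39, yet all 58735 gene IDs carry names and coordinates of GENCODE release 29 (GRCh38), so counts were read as human. No source used here gives the counting program or strandedness. Gene length in the table equals the union of GENCODE exons for all 78 genes and was used for CPM per kb.

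Genes were filtered with filterByExpr (18121 genes, 99.9% of counts), TMM-scaled and fitted with edgeR 4.0.16 (R 4.3.3, limma 3.58.1) as 4 group means over 16 libraries. The interaction is the change with formoterol in fatty acids less that without them. The SE is the log2 fold change divided by the square root of the F statistic. The fit was also run on simulated counts, with the same spread set for every gene and no outlying libraries. That run therefore does not show how the fit handles the spread of these libraries. Alternatives were DESeq2 size factors, total counts, DESeq2 1.42.0, no filter, at least 1 CPM in 4 libraries, a fit on protein-coding genes, a fit on just the groups compared, the replicate number as a block, and each library left out. Libraries of different groups with the same replicate number had correlations of −0.11 to 0.08 over 24 pairs, and the main fit used no pairing.

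The genes, the other gene lists and the tests were chosen with earlier results of these data known. Named are, per comparison, subunit and direction, up to 4 called genes with the smallest p (or, with fewer than 4 called in all, the 4 smallest p), 13 genes with known roles, the 3 highest and 3 lowest of each subunit, genes with an outlying library, and up to 3 called genes of each other list. Promoters came from RefSeq. Python 3.11.15 with matplotlib 3.10.9, scipy 1.17.1, numpy 2.4.6 and pandas 2.3.3 made tables and figures. Precision differed with gene length: for formoterol against control the median SE was 0.12 for the 40 genes at or under the median length and 0.09 for the 38 longer ones, with 3 and 7 called. The split of calls differed between comparisons. In the combination against formoterol 9 and 9 fell and 0 and 1 rose, and with fatty acids 4 and 3 fell and 1 and 1 rose.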

Additional observations from a re-analysis of the deposited data

Results flagged for a closer look

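Single libraries stood apart from the other 3 of their group for 18 gene values and for 1 sum, of 320 values tested for an outlying library with Dixon's test (5.94%; chance gives about 1 in 20). Formoterol replicate 4 held 6 of the 19. It was high for MRPL23 (3.18 CPM), MRPL32 (56.2 CPM, overlapping PSMA2 with 0.175 times its counts), MRPL36 (11.4 CPM), MRPS11 (18.9 CPM), MRPS9 (42.1 CPM) and the summed CPM of the small subunit (1109 CPM). Control replicate 2 held 5 and was low for MRPL13 (33.8 CPM), MRPL17 (15.1 CPM), MRPL18 (27.7 CPM), MRPS18A (9.98 CPM) and MRPS26 (13.0 CPM). The low value of MRPL13 enters its rise with formoterol, and that call was lost in 4 of 25 alternative settings, among them without control replicate 2.

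The other outlying libraries were control replicate 4 for MRPL24 (51.4 CPM, high), formoterol replicate 1 for MRPL45 (39.7 CPM, low), formoterol replicate 2 for MRPS18C (5.25 CPM, low) and formoterol replicate 3 for MRPL44 (52.0 CPM, high). The call of MRPL44 with formoterol was lost in 14 of 25 alternative settings, among them without any single formoterol library. Fatty acids replicate 2 was high for MRPL4 (19.4 CPM) and low for MRPS18A (8.39 CPM), fatty acids replicate 4 was high for MRPL55 (11.1 CPM), and combination replicate 4 was high for MRPS5 (59.2 CPM).

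The effect of formoterol differed with and without fatty acids, by edgeR's test of the interaction itself, for MRPL39 (−0.76), MRPS5 (−0.37) and MRPS35 (−0.40). What lies behind these differences was not tested.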

How the results depend on the processing

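No gene called in the main fit reversed its direction in the alternatives run. Subunit medians changed sign under some settings. With total counts they did so for formoterol against control (0.12 in both subunits with TMM scaling). They also did so for the interaction (−0.08 in the large and −0.11 in the small subunit with TMM scaling). Counts of changed genes moved with scaling and with single libraries, and the cause was not tested. For formoterol against control, with 10, total counts gave 3 and leaving out 1 library 3 to 13. For the combination against formoterol, with 19, total counts gave 7, the fit on only the groups compared 12 and leaving out 1 library 10 to 22. For the combination against control, with 7, only the groups compared gave 2 and leaving out 1 library 2 to 8. Fatty acids against control, with 9, gave 6 to 13 with 1 library left out, and the combination against fatty acids, with 0, gave 0 throughout, except that DESeq2 gave 2. The interaction, with 3, gave 1 to 3 with 1 library left out and 5 with DESeq2. Leaving out the genes that overlap another with over 10% of their counts left 6 of 49 for formoterol, 4 for the combination against control and 10 for the combination against formoterol. Leaving out formoterol replicate 4 and combination replicate 2 together, added after seeing the data, gave 6, 4, 5 and, for the interaction, 1. Total counts move the median of all genes to −0.14 for formoterol against control, 0.14 for the combination against formoterol and 0.17 for the interaction, where the subunit medians become 0.07 and 0.04.

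The replicate number as a block gave 10 changes for formoterol, 12 for fatty acids, 10 for the combination against control, 0 against fatty acids and 23 against formoterol, and 3 for the interaction. Of 16 libraries 7 correlated best with one of their own number, and whether the numbers mark a shared batch is not known. The fit on only the groups compared was not run for the interaction, which needs all groups. Depth limits MRPS24 most, with 7 to 42 counts per library.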
